A study of Mus musculus with 23 samples.

Results

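Glycolysis and the response to low oxygen were followed through 33 mouse genes, each found by its symbol among the 39017 genes of the count tables. They fall into 17 glycolytic enzymes, 4 glucose and lactate transporters, 10 genes that low oxygen is known to induce, and the 2 HIF alpha subunits Hif1a and Epas1. Glycolysis turns glucose into pyruvate, and lactate dehydrogenase then turns pyruvate into lactate. HIF alpha proteins are destroyed when oxygen is plentiful and are kept when it is scarce. When kept, they pair with Arnt and switch on many glycolytic enzymes, glucose transporters and genes such as Adm and Car9. Dividing neural precursors and brain tumour cells are known for high glycolytic activity.

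RNA was sequenced from 23 libraries of C57BL/6 cells in 8 groups. Plasmids were placed in neural precursors of the embryonic cortex by in utero electroporation, with a piggyBac transposon to hold them in the genome and CRISPR/Cas9 against Trp53, the gene of p53. Cells carrying GFP were sorted and expanded. Libraries are of preneoplastic cells taken at 72 h (15 libraries) or of tumours at 5 to 9 months (8 libraries). EV ctl (2 libraries, numbered 4 and 5) is wild type with empty vector, and EV-PDGFRA (3) overexpresses the growth factor receptor Pdgfra. WT-AP (4) overexpresses wild-type histone H3.3, lacks Trp53 (Trp53-/-) and carries an Atrx shRNA, a hairpin directed against the chromatin remodeller Atrx. K27M-AP (4) has the same changes with H3.3K27M, a histone mutant of childhood glioma, in place of wild-type H3.3, and K27M-APP (2) adds Pdgfra overexpression. The tumours are K27M-AP T (3), K27M-APP T (4), and K27M-P T (1), which carries H3.3K27M without Trp53 and without the hairpin. EV ctl and EV-PDGFRA are called untargeted below, and WT-AP, K27M-AP and K27M-APP targeted. All targeted cells also carry an H3.3 transgene, so that transgene, the loss of Trp53 and the Atrx hairpin cannot be told apart. Whether replicate libraries are from different animals or cultures is not in the labels, so the p-values measure the spread between these samples only. Fewer expressing cells and less RNA per cell cannot be told apart in such bulk libraries.

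Each library held 37300947 to 68642582 counts. Trp53 RNA stood at 40.9 to 51.6 CPM (counts scaled to a common library size) in the untargeted libraries and at 13.5 to 27.7 in the targeted ones. One tumour went against its label: the library labelled K27M-AP T 4 held 49.4 CPM of Trp53, although its Cdkn1a, a p53 target gene, was 18.3 CPM against 139 to 209 in the untargeted libraries. Atrx held 184 to 300.4 CPM in the untargeted libraries and 262, 111, 158 and 126 in WT-AP, so the library labelled WT-AP 1 went against its hairpin label. In the other 9 targeted libraries Atrx was 77.9 to 163 CPM, below every untargeted library, and in the K27M-AP T and K27M-APP T tumours it was 46 to 125 CPM. The proliferation gene Mki67 was lowest in K27M-AP 4 (19.1 CPM) and EV ctl 5 (43.1 CPM), while the other 21 libraries held 186 to 913. Markers of neural stem and progenitor cells and of oligodendrocyte precursors summed to at least 1211 CPM in every library. In all 23 libraries the 5 red blood cell markers and the 7 lymphocyte markers each stayed below 1 CPM.

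The steady levels differed widely between isozymes, here compared as RPKM, reads scaled by exon length and depth. In EV ctl, Aldoa, which splits the fructose bisphosphate, stood at 238 ± 115 RPKM (SD, n = 2) and the pyruvate kinase Pkm at 232 ± 49.3. The lactate dehydrogenase subunits Ldha and Ldhb stood there at 108 ± 53 and 89.3 ± 66 RPKM. Among the 3 phosphofructokinases, Pfkm led with 34.7 ± 12.2 RPKM, ahead of Pfkl with 9.19 ± 6.9 and Pfkp with 5.86 ± 6.14. The ubiquitous enolase Eno1 exceeded the neuronal form Eno2, 43.9 ± 7.0 against 3.02 ± 2.5 RPKM. Hif1a was far above its relative Epas1 in RPKM, 54.4 ± 10.1 against 0.701 ± 0.182. Slc16a3, the lactate exporter of glycolytic cells, was low at 0.17 ± 0.0127 RPKM, whereas the related carrier Slc16a1 was at 17.7 ± 4.72. Car9, Ankrd37 and P4ha2 were below 1 RPKM in EV ctl.

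Some of these levels are uncertain where near-identical copies can share reads. Of all 50-base windows in the transcripts of Pgk1, 53.9% also occur in transcripts of another gene, and the share is 36.2% for Pgam1, 26% for Eno1, 25.8% for Pkm and 21% for Ldhb. Gapdh shares 24.7% of its windows with 218 other genes and was counted at only 5.03 to 16.6 CPM. Hk1, Hk2, Pfkp and Car9 share none. How reads with several matches were counted, and whether strand was used, is not given in the sources used here. Exons of Hk1, Gpi1, Slc2a1, Bnip3, Car9, Ndrg1 and Hif1a overlap noncoding genes on the other strand. Exons of Pfkp overlap the coding gene Pitrm1 on the other strand, and those of Ankrd37 overlap Lrp2bp and Ufsp2. Exons of Pfkm, Aldoa, Tpi1 and Gapdh also overlap coding genes there. Exons of Pfkm, Pkm and Hif1a overlap another gene on the same strand. The reads of all these members cannot be separated with certainty.

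**Figure D1:**
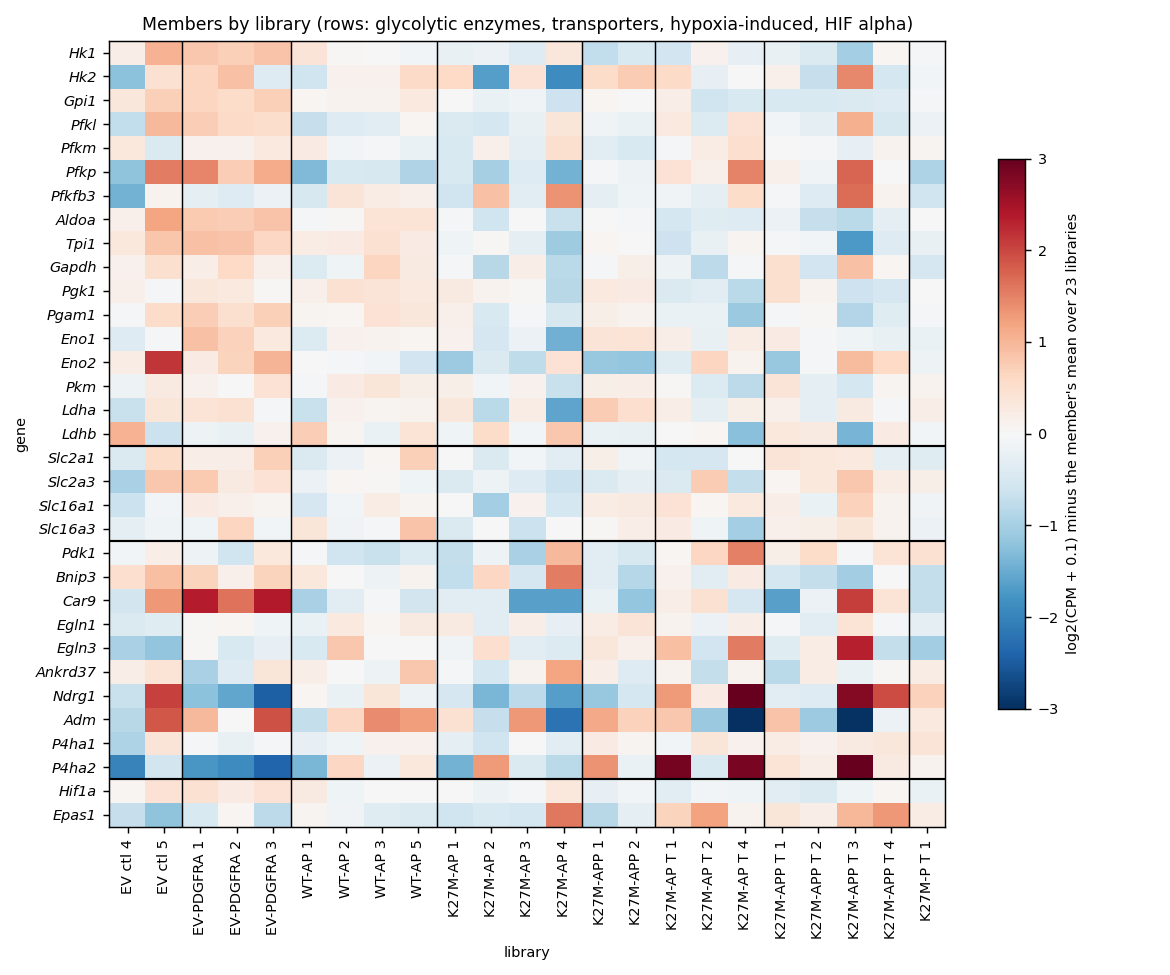
Level of each of the 33 members (rows) in each of the 23 libraries (columns), as log2(CPM + 0.1) minus the mean of that gene over all libraries. Red is above and blue below that mean, colours are capped at 3 in either direction, horizontal lines part the 4 classes and vertical lines the 8 groups. EV ctl 5 and the 3 EV-PDGFRA libraries are red for Hk1, Pfkp, Aldoa and Tpi1, and among tumours K27M-APP T 3 and the library labelled K27M-AP T 4 are highest for Ndrg1 and lowest for Adm.

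The first question was whether these genes differ between targeted and untargeted preneoplastic cells. Of the 17 glycolytic enzymes, 6 were called lower in the targeted cells and 11 were not called. Several of the calls depend on a few libraries, as given below. Of the 33 members, 7 fell and 1 rose at an adjusted p below 0.05 (edgeR quasi-likelihood test, Benjamini-Hochberg adjustment over all genes). Of all 20197 genes tested, 7.75% were called, 4.51% lower and 3.24% higher. At an unadjusted p below 0.05 the figures were 15 of the 33 members, all of which passed the filter on low counts, and 24% of all genes. The falls were in 6 of the 17 glycolytic enzymes (Hk1, Gpi1, Pfkp, Aldoa, Tpi1 and Eno2) and in Car9, and the rise was in P4ha2. The comparison averages WT-AP with K27M-AP, then with K27M-APP, and sets them against EV ctl and EV-PDGFRA, so that Pdgfra delivery is balanced. The median log2 fold change was -0.32 over the glycolytic enzymes, -0.084 over the transporters, -0.090 over the hypoxia-induced genes and 0.025 over the HIF alpha subunits, beside 0.0029 over all genes tested.

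**Figure D2:**
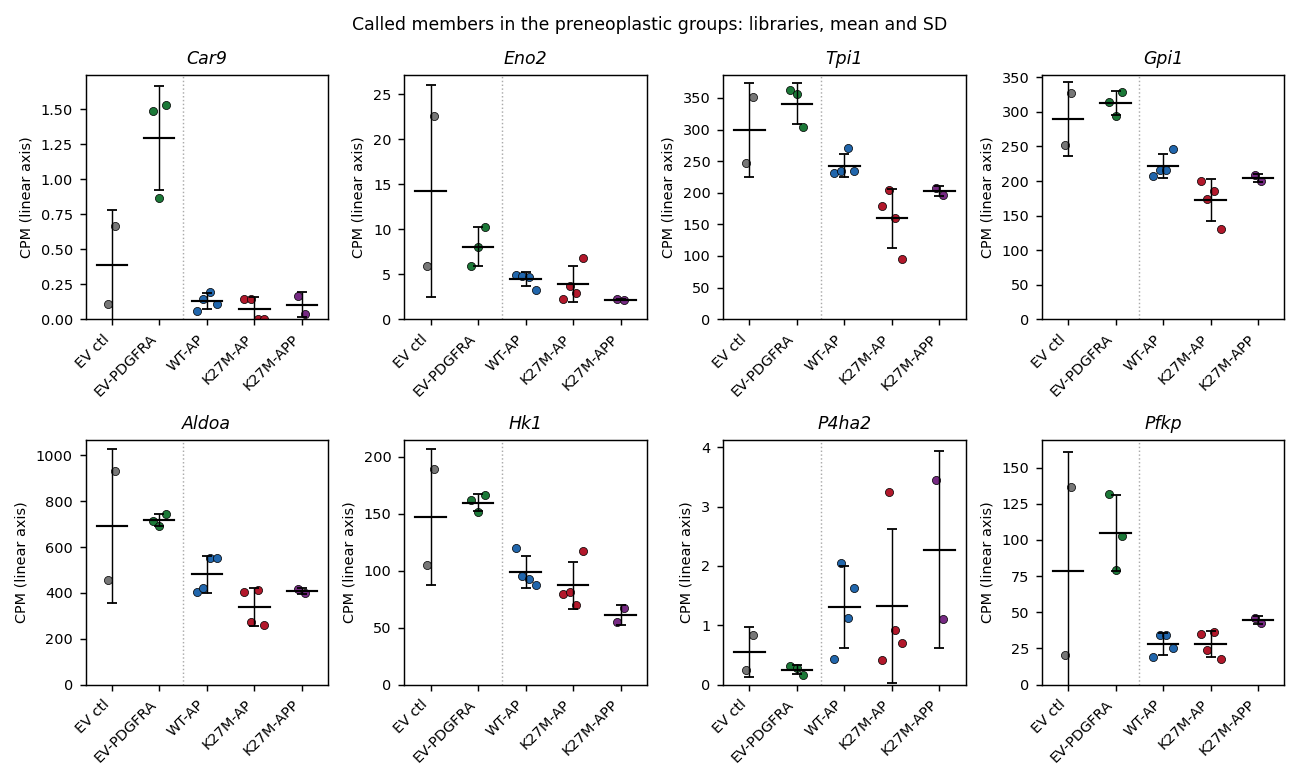
CPM of the 8 called members in the 5 preneoplastic groups, on linear axes from 0. Points are libraries, horizontal bars are group means, error bars are SD and the dotted line parts untargeted from targeted groups. Gpi1 is the member whose targeted libraries all lie below all untargeted ones, and in the EV ctl group the 2 points of Pfkp, Aldoa, Hk1 and Eno2 lie far apart.

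Hk1 is the hexokinase that traps glucose in most brain cells (ENSMUSG00000037012, GRCm38 chr10:62268855-62379908, minus strand). Its level was 105 and 189 CPM in the EV ctl pair, 162, 151 and 166 in EV-PDGFRA, 119.8, 95, 92.6 and 87.3 in WT-AP, 79.3, 81.2, 70.2 and 117 in K27M-AP and 55 and 67.3 in K27M-APP, each group in replicate order. Only EV ctl 4 lay inside the range of the targeted libraries, and 8 of the 10 targeted libraries lay below the lowest untargeted one. Hk1 fell by a log2 fold change of -1.02 ± 0.17 (SE) with an adjusted p = 0.00415 in edgeR. Its relative Hk2, the inducible hexokinase of growing tissue, ranged from 11.6 to 50.3 CPM in untargeted and from 7.28 to 46.1 in targeted libraries, and its log2 fold change was 0.15 ± 0.48 (SE) (edgeR adjusted p = 0.872).

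Gpi1 makes fructose 6-phosphate from glucose 6-phosphate (ENSMUSG00000036427, chr7:34201330-34230336, minus strand). In EV ctl it stood at 252 and 328 CPM, and in EV-PDGFRA at 315, 294 and 329 CPM. In targeted cells it stood at 208, 216, 217 and 247 in WT-AP, 201, 174, 185 and 130.2 in K27M-AP and 209 and 200.4 in K27M-APP. All 10 targeted libraries lay below all 5 untargeted libraries, the closest pair being WT-AP 5 and EV ctl 4. Gpi1 fell by a log2 fold change of -0.58 ± 0.12 (SE), with an adjusted p = 0.0135 in edgeR.

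The committed step of glycolysis is phosphofructokinase, and Pfkp is its platelet type (ENSMUSG00000021196, chr13:6579768-6648777, minus strand). Pfkp held 20.4 and 137 CPM in the EV ctl pair, 132, 79.1 and 103 in EV-PDGFRA, 19, 34.6, 34.2 and 25.3 in WT-AP, 34.7, 23.6, 36.5 and 17.6 in K27M-AP and 46.3 and 42.6 in K27M-APP. EV ctl 4 stood among the targeted libraries, and the other 4 untargeted libraries stood above them all. The log2 fold change was -1.35 ± 0.38 (SE) (edgeR adjusted p = 0.0481), but without EV ctl 5 it was -0.38 with an adjusted p = 0.432. The liver type Pfkl had a log2 fold change of -0.68 ± 0.26 (SE) and the muscle type Pfkm one of -0.27 ± 0.17 (SE), with edgeR adjusted p-values of 0.128 and 0.355. Pfkfb3, which makes the activator of phosphofructokinase, had the highest log2 fold change of the glycolytic enzymes, 0.44 ± 0.35 (SE), and was not called (adjusted p = 0.465).

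Aldoa (ENSMUSG00000030695, chr7:126795234-126800751, minus strand) held 456 and 931 CPM in the EV ctl libraries, on either side of the 715, 692 and 747 of EV-PDGFRA. It held 403, 420.4, 550.4 and 551 in WT-AP, 405, 273, 412 and 258 in K27M-AP and 418 and 398 in K27M-APP. Again EV ctl 4 overlapped the targeted libraries and 4 untargeted libraries lay above them. Aldoa fell by a log2 fold change of -0.79 ± 0.19 (SE) (edgeR adjusted p = 0.0258). Tpi1, the triose phosphate isomerase that follows it (ENSMUSG00000023456, chr6:124810586-124814296, minus strand), held 247 and 351 CPM in EV ctl, beside 363, 356 and 304 with Pdgfra alone. It held 232, 235, 270.2 and 234 in WT-AP, 179.7, 204, 161 and 95.2 in K27M-AP and 208 and 197 in K27M-APP. WT-AP 3 alone among the targeted libraries exceeded the lowest untargeted one, and the log2 fold change was -0.67 ± 0.17 (SE) (edgeR adjusted p = 0.0316).

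Eno2, the enolase of neurons (ENSMUSG00000004267, chr6:124760053-124769673, minus strand), held 5.87 and 22.5 CPM in the EV ctl pair, 5.9, 8.03 and 10.3 in EV-PDGFRA, 4.92, 4.82, 4.7 and 3.3 in WT-AP, 2.29, 3.66, 2.91 and 6.8 in K27M-AP and 2.21 and 2.17 in K27M-APP. EV ctl 5 was the highest of all and K27M-AP 4 the one targeted library inside the untargeted range. Eno2 fell by a log2 fold change of -1.82 ± 0.35 (SE) (edgeR adjusted p = 0.00849). The 8 summed neuron markers ran from 647 to 916 CPM in untargeted and from 850.3 to 1311 in targeted libraries, with overlap. Of these markers 0 were called, and their part in the Eno2 value was not tested. The later steps of the pathway were otherwise uncalled. Gapdh, Pgk1, Pgam1, Eno1, Pkm, Ldha and Ldhb had log2 fold changes from -0.36 for Pgam1 to 0.13 for Ldha. Pgk1 and Pgam1, which work between Gapdh and the enolases, held 49.6 to 65.2 and 50.1 to 87.1 CPM in untargeted and 28.8 to 70.8 and 37.6 to 71 in targeted libraries. Eno1 held 209.8 to 505 CPM in untargeted and 99.7 to 365 in targeted libraries, with K27M-AP 4 lowest. Ldhb, the form favoured by cells that use lactate, was highest in EV ctl 4 (213 CPM) and lowest in EV ctl 5 (66.9) among the 15 libraries. Ldha, which makes lactate, ranged from 234 to 515 CPM in untargeted and from 125 to 632 in targeted libraries, its 2 highest values being 632 and 534 in K27M-APP. The pyruvate kinase Pkm had a log2 fold change of -0.0031 ± 0.16 (SE).

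**Figure D3:**
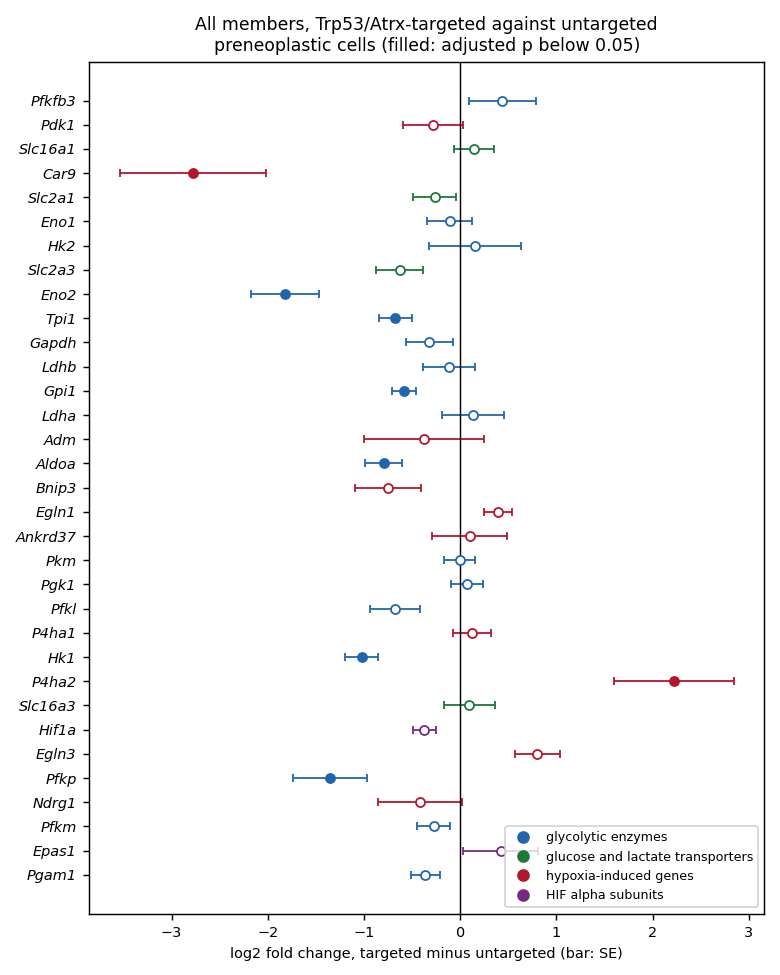
Log2 fold change, targeted minus untargeted preneoplastic cells, of all 33 members, with SE as bars and 1 colour for each of the 4 classes. Filled points are the 8 members with an adjusted p below 0.05. Of the 17 glycolytic enzymes 13 lie left of 0, and the hypoxia-induced genes run from Car9, farthest left, to P4ha2, farthest right.

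The transporters were not called. The glucose transporter Slc2a1 had a log2 fold change of -0.27 ± 0.23 (SE) and the high-affinity Slc2a3 one of -0.63 ± 0.24 (SE), with edgeR adjusted p-values of 0.498 and 0.127. Slc2a3 held 13.2 to 45.5 CPM in untargeted and 16.5 to 27 in targeted libraries, and EV ctl 4 was the lowest of all 15. The lactate carriers Slc16a1 and Slc16a3 had log2 fold changes of 0.14 ± 0.21 (SE) and 0.097 ± 0.27 (SE).

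The hypoxia-induced genes did not move as a group: 1 of the 10 fell, 1 rose and 8 were not called. Car9, a carbonic anhydrase of the cell surface (ENSMUSG00000028463, chr4:43506966-43513729, plus strand), held 0.112 and 0.667 CPM in the EV ctl pair, 1.49, 0.866 and 1.53 in EV-PDGFRA, 0.0593, 0.148, 0.197 and 0.112 in WT-AP, 0.146, 0.145, 0 and 0 in K27M-AP and 0.169 and 0.0395 in K27M-APP. These are 6 to 74 counts in an untargeted library and 0 to 10 in a targeted one, and the EV-PDGFRA libraries were the 3 highest. Car9 fell by a log2 fold change of -2.78 ± 0.76 (SE) (edgeR adjusted p = 0.0427). P4ha2, a collagen prolyl hydroxylase subunit (ENSMUSG00000018906, chr11:54100095-54131665, plus strand), held 0.242 and 0.838 CPM in the EV ctl pair, 0.315, 0.276 and 0.165 in EV-PDGFRA, 0.435, 2.04, 1.13 and 1.62 in WT-AP, 0.421, 3.25, 0.925 and 0.693 in K27M-AP and 3.44 and 1.11 in K27M-APP. In 7 of the 10 targeted libraries P4ha2 was above the highest untargeted one, and its log2 fold change was 2.22 ± 0.62 (SE) (edgeR adjusted p = 0.0461).

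Egln3, an oxygen-sensing prolyl hydroxylase that marks HIF alpha for destruction and is itself induced by HIF, held 5.56 to 13.1 CPM in untargeted and 9.19 to 22.4 in targeted libraries. Its log2 fold change was 0.80 ± 0.24 (SE) and missed the threshold (edgeR adjusted p = 0.0564). Adm, the vessel-dilating peptide adrenomedullin, had a log2 fold change of -0.37 ± 0.62 (SE) with libraries from 2.23 to 41.1 CPM, a spread found in untargeted and targeted groups alike. Ndrg1, a stress-responsive gene of differentiating cells, was 1.4 and 9.68 CPM in the 2 EV ctl libraries and 0.90, 0.709 and 0.331 in EV-PDGFRA. In targeted libraries Ndrg1 ran from 0.65 to 2.96 CPM, between those extremes. Bnip3, a mitochondrial receptor for autophagy, had a log2 fold change of -0.75 ± 0.34 (SE) (edgeR adjusted p = 0.201), and K27M-AP 4 was its highest library at 31.8 CPM. Egln1, the main prolyl hydroxylase that senses oxygen, held 60.4 to 84.7 CPM in untargeted and 64.5 to 106 in targeted libraries, with a log2 fold change of 0.39 ± 0.14 (SE) (edgeR adjusted p = 0.108). Pdk1 had a log2 fold change of -0.28 ± 0.31 (SE) and K27M-AP 4 was again the highest of the 15 libraries, while K27M-AP 3 was the lowest (7.63 CPM). P4ha1, the paralog of P4ha2 and more abundant per length (14.8 ± 8.94 against 0.0866 ± 0.0675 RPKM in EV ctl), held 34.9 to 86.9 CPM in untargeted and 43.8 to 77.8 in targeted libraries, and its log2 fold change was 0.12 ± 0.20 (SE). Ankrd37, a small ankyrin repeat gene, held 0.293 to 1.65 CPM over all 15 libraries, with a log2 fold change of 0.10 ± 0.39 (SE).

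Hif1a, the widely expressed oxygen-regulated subunit, held 278 to 365 CPM in untargeted and 228 to 336 in targeted libraries. Its log2 fold change was -0.37 ± 0.12 (SE) (edgeR adjusted p = 0.0784). Epas1, which encodes the related HIF subunit of vessels and glia, held 4.98, 5.47, 5.19 and 22.8 CPM in K27M-AP, where library 4 stood apart, and 3.2 to 7.91 in the untargeted libraries. The summed astrocyte markers, 6 genes, ran from 290.3 to 595 CPM in untargeted libraries and from 98 to 1391 in K27M-AP, and their part in the Epas1 value was not tested.

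Several of these calls rest on a few libraries. The share of all genes called under these changes is not given here, so the counts describe the dependence only. EV ctl 5, low in Mki67, was the highest of the 15 preneoplastic libraries for Hk1, Aldoa, Eno2, Pfkp and Ndrg1, while EV ctl 4 was the lowest untargeted library for Hk1, Gpi1, Pfkp, Aldoa, Tpi1, Eno2 and Car9. Without EV ctl 5 the count of called members went from 8 to 1 (Hk1), and without EV ctl 4 to 10. Without either K27M-APP library it was 1 (Hk1), and without any one of the EV-PDGFRA libraries 4. Without WT-AP 3 or WT-AP 5 it was 5, and without the library labelled WT-AP 1 it was 7, with Pfkp and Car9 no longer called. With the replicate number as a block it was 4, with Eno2, Pfkp, Car9 and P4ha2 no longer called. Leaving out K27M-AP 4 gave 11, and leaving out both libraries low in Mki67 gave 6. The log2 fold change of Hk1 without those 2 libraries was -0.82 (edgeR adjusted p = 0.00267), and that of Pfkp was -0.33 (adjusted p = 0.372). All 10 proliferation genes had a positive log2 fold change in the same comparison, with a median of 0.86 and 0 called. Their summed level ran from 473 to 3109 CPM in untargeted and from 161 to 3625 in targeted libraries. The summed neural stem and progenitor markers ran from 7491 to 8875 CPM in untargeted and from 3657 to 6593 in targeted libraries. Vim, a large part of that sum, held 3392 to 4767 CPM in untargeted and 731 to 2480 in targeted libraries. Of these 8 genes Vim fell and Prom1 rose, and 4 had positive log2 fold changes, with a median of 0.076 over the 8. The part of these cell states in the glycolytic differences was not tested.

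The libraries also entered the deposited tables at 2 stages, and the split touches this comparison. The 8 preneoplastic libraries of the earlier table, which hold no EV ctl, gave 9 called members with Hk1 at a log2 fold change of -1.05. The 7 first seen in the later table, which hold no K27M-APP, gave 0, with Hk1 at -0.76 (edgeR adjusted p = 0.717). With a term for the table in the fit 4 members were called. The signs of the log2 fold changes of all 8 genes were the same within each table, but the 8 were chosen by the fit that holds the libraries of both.

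HIF binds DNA at the core letters ACGTG or GCGTG, so the promoters of the called genes were read for them. RefSeq promoter windows of 300 bases (250 before and 50 after the start, build GRCm38.p6) were matched for 30 of the 33 members. Both strands were searched, and ACGTG is also contained in the E-box CACGTG, which other factors bind. Either core occurs in 24 of the 30 members and in 43.8% of all 32851 windows. All 9 matched hypoxia-induced genes and 11 of the 17 glycolytic enzymes hold one. The members were listed as glycolysis and hypoxia genes, and the windows were not matched for their content of G and C. These shares are therefore no test of enrichment. Of the 6 enzymes that fell, Hk1, Gpi1, Aldoa, Tpi1 and Eno2 hold neither in the window closest to the annotated start, and Pfkp holds GCGTG 4 times. Hk1 and Aldoa have other annotated starts, and 1 of 2 Hk1 windows and 2 of 3 Aldoa windows do hold a core. Shown for comparison are Hk1 (chr10:62379859-62380158, minus strand), Gpi1 (chr7:34230287-34230586, minus strand) and Tpi1 (chr6:124814109-124814408, minus strand), which fell and hold no core, Pfkp (chr13:6648722-6649021, minus strand), which fell and holds 4, Car9 (chr4:43506776-43507075, plus strand) and P4ha2 (chr11:54100674-54100973, plus strand), which moved in opposite directions, and Ldha (chr7:46845554-46845853, plus strand), uncalled, with 5 of ACGTG and 2 of GCGTG. Sequences run 5′ to 3′ on the strand of the gene, with every ACGTG or GCGTG, on either strand, in capitals, and a CACGTG counts once on each strand.
Hk1: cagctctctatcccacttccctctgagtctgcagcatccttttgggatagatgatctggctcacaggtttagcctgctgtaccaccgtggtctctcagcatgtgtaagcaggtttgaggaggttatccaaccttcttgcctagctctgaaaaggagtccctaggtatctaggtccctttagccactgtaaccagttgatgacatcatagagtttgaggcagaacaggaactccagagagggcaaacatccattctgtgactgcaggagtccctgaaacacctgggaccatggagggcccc
Gpi1: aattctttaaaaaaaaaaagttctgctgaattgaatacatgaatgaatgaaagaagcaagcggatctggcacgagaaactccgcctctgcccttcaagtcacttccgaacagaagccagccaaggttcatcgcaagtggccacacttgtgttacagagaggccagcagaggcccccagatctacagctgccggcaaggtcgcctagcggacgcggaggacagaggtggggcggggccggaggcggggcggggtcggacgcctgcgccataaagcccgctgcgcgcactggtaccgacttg
Tpi1: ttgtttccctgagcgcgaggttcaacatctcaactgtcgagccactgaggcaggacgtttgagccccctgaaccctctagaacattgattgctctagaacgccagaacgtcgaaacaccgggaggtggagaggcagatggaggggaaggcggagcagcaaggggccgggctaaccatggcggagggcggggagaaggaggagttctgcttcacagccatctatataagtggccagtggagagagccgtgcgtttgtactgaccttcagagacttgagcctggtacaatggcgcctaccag
Pfkp: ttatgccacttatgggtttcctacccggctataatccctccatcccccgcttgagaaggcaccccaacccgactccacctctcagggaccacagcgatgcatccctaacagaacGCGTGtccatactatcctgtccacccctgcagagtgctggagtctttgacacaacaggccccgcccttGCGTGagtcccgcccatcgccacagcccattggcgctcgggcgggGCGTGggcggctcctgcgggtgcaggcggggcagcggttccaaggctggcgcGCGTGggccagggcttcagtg
Car9: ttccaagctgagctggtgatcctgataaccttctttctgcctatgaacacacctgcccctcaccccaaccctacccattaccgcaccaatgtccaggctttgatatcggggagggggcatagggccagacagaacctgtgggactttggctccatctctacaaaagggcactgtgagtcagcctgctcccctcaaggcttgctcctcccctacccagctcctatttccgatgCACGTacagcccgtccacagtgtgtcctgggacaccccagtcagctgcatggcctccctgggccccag
P4ha2: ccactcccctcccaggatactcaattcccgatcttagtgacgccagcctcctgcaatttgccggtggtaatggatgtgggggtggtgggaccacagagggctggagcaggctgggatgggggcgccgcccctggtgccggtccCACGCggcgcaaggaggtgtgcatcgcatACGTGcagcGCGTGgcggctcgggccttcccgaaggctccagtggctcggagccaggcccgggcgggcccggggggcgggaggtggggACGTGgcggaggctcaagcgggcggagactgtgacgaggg
Ldha: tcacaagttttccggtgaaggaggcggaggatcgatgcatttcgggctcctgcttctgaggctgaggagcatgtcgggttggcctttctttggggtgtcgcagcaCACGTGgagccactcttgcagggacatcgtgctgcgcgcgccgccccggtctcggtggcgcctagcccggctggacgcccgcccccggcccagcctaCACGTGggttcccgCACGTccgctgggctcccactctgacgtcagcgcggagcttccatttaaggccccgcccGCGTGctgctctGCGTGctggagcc
A match describes the letters of the window, and no match says only that these letters are not in it.

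The single steps of the design were compared next. Shares of all genes called, here and for the tumours below, are those of the main edgeR fits. None is given for DESeq2 or with libraries left out. Adding H3.3K27M, Trp53 loss and the Atrx hairpin to Pdgfra delivery, that is K27M-APP against EV-PDGFRA, called 1 member, Hk1, which fell by a log2 fold change of -1.38 ± 0.27 (SE) (edgeR adjusted p = 0.0237). In that comparison 1.94% of all genes were called, 1.03% lower and 0.906% higher, and 15.5% had an unadjusted p below 0.05, as did 9 of the 33 members. Hk1 stood at 162, 151 and 166 CPM in EV-PDGFRA and 55 and 67.3 in K27M-APP, with no overlap. The call was lost without any one of these 5 libraries. DESeq2 called 5 members, and leaving out the 2 libraries low in Mki67, which are in neither group but enter the estimate of spread, gave 8.

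Trp53 loss and the Atrx hairpin with wild-type H3.3, WT-AP against EV ctl, called 0 members by edgeR, with 0.312% of all genes called. There 5 of the 33 had an unadjusted p below 0.05, against 10% of all genes, and DESeq2 called 2, Eno2 and Egln3. Eno2 had a log2 fold change of -1.67 ± 0.47 (SE) and Pfkp of -1.46 ± 0.52 (SE), with adjusted p-values of 0.217 and 0.34. Both rest on EV ctl 5: without it Eno2 was -0.40 and Pfkp 0.47, and without EV ctl 4 they were -2.33 and -2.26. The prolyl hydroxylases Egln3 and Egln1 had log2 fold changes of 1.27 ± 0.35 (SE) and 0.53 ± 0.21 (SE), the lactate carriers Slc16a3 and Slc16a1 of 0.57 ± 0.39 (SE) and 0.30 ± 0.30 (SE), and Epas1 and Hif1a of 0.77 ± 0.57 (SE) and -0.21 ± 0.17 (SE). Without EV ctl 4, 2 members were called, which rests on the single remaining EV ctl library. Without the library labelled WT-AP 1, whose Atrx lay within the untargeted range, 0 were called.

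Pdgfra delivery alone, EV-PDGFRA against EV ctl, called 0 members by edgeR and 0% of all genes. There 3 of the 33 had an unadjusted p below 0.05, against 7.03% of all genes, and DESeq2 called 1, Ndrg1. The largest difference was in Ndrg1, with a log2 fold change of -3.06 ± 0.67 (SE) (edgeR adjusted p = 0.443), which rests on the 9.68 CPM of EV ctl 5 beside 1.4 in EV ctl 4. Eno1 had a log2 fold change of 0.89 ± 0.37 (SE), the mutase Pgam1 of 0.41 ± 0.24 (SE), Slc16a1 of 0.53 ± 0.31 (SE), Slc16a3 of 0.45 ± 0.41 (SE), Egln3 of 0.91 ± 0.36 (SE), Epas1 of 0.63 ± 0.60 (SE) and Hif1a of 0.15 ± 0.18 (SE). Of the 17 glycolytic enzymes 15 had positive values, with a median of 0.22 beside -0.0078 over all genes. That median depends on the EV ctl pair, being -0.038 without EV ctl 4 and 0.60 without EV ctl 5.

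The histone mutant itself, K27M-AP against WT-AP, called 0 members by edgeR, with 0.0297% of all genes called. There 4 of the 33 had an unadjusted p below 0.05, against 3.95% of all genes, and DESeq2 called 0. Tpi1 and Gpi1 had the smallest p among the enzymes, with log2 fold changes of -0.60 ± 0.20 (SE) and -0.36 ± 0.14 (SE) (edgeR adjusted p = 1 for both), and 13 of the 17 enzymes were negative with a median of -0.26, beside 0.0066 over all genes. Slc16a3 and Slc2a3 had log2 fold changes of -0.61 ± 0.31 (SE) and -0.35 ± 0.28 (SE), Ndrg1 of -1.1 ± 0.51 (SE), the hydroxylase subunit P4ha1 of -0.26 ± 0.23 (SE), Epas1 of 0.53 ± 0.45 (SE) and Hif1a of 0.0062 ± 0.14 (SE). K27M-AP 4 was the lowest of the 8 libraries for Tpi1 (95.2 CPM), Gpi1 (130.2) and Eno1 (99.7), and the highest for Epas1 (22.8), whose log2 fold change without it was -0.34.

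Adding Pdgfra to the mutant background, K27M-APP against K27M-AP, called 0 members by edgeR and 0% of all genes. There 1 of the 33 had an unadjusted p below 0.05, against 5.94% of all genes, and DESeq2 called 0. Eno1 and Ldha had log2 fold changes of 0.81 ± 0.33 (SE) and 0.92 ± 0.45 (SE), with adjusted p-values of 0.667 and 0.667. Ldha stood at 470.0, 212, 438 and 125 CPM in K27M-AP and 632 and 534 in K27M-APP, with K27M-AP 1 and 3 close to K27M-APP and K27M-AP 2 and 4 well below. Slc16a1 and Slc16a3 had log2 fold changes of 0.55 ± 0.29 (SE) and 0.42 ± 0.38 (SE), Bnip3 of -1.06 ± 0.52 (SE), P4ha1 of 0.46 ± 0.28 (SE), Epas1 of -0.86 ± 0.57 (SE) and Hif1a of -0.18 ± 0.18 (SE). K27M-AP 4 held 22.8 CPM of Epas1 and 31.8 of Bnip3, and without it their log2 fold changes were 0.014 and -0.46. Whether the Pdgfra step differed between the mutant and the wild-type background was tested as an interaction. It called 0 members by edgeR and 0% of all genes. Here 1 of the 33 had an unadjusted p below 0.05, against 2.45% of all genes, and DESeq2 called 0. Ndrg1 had an interaction of 3.3 ± 0.89 (SE) and Epas1 of -1.49 ± 0.83 (SE) on the log2 scale, with an adjusted p = 1 for both.

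Tumours were then compared with the preneoplastic cells of the same genotype. No member was called, and several hypoxia-induced genes spread widely among tumours of 1 genotype. Averaged over both backgrounds, edgeR called 0 members and 0.0736% of all 20373 genes. Here 5 of the 33 had an unadjusted p below 0.05, against 10% of all genes, and DESeq2 called 1, Ndrg1. The median log2 fold change was -0.00068 over the glycolytic enzymes, 0.14 over the transporters, 0.50 over the hypoxia-induced genes and 0.36 over the HIF alpha subunits, beside 0.024 over all genes.

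Ndrg1 (ENSMUSG00000005125, chr15:66929318-66969640, minus strand) had the smallest p. It stood at 1.57, 0.819, 1.27 and 0.65 CPM in K27M-AP and 0.979 and 1.54 in K27M-APP, against 5.59, 2.71 and 26.9 in K27M-AP T and 1.8, 1.71, 15.9 and 9.02 in K27M-APP T. All 7 tumour libraries were above all 6 preneoplastic ones, and the tumours themselves spanned 1.71 to 26.9 CPM. The log2 fold change was 2.94 ± 0.73 (SE), with an unadjusted p = 0.00166 and an adjusted p = 0.164 in edgeR. By DESeq2 the adjusted p was 0.000273, and without the library labelled K27M-AP T 4 the edgeR log2 fold change was 2.2. Restricted to the libraries of the earlier table, it was 1.12. EV ctl 5, a preneoplastic library outside that comparison, held 9.68 CPM.

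Pfkp, lower in targeted than in untargeted preneoplastic cells, was at 63.8, 53.1 and 134 CPM in K27M-AP T and 53.1, 44.2, 159 and 46.8 in K27M-APP T. Its log2 fold change against the preneoplastic cells was 1.15 ± 0.37 (SE) (edgeR adjusted p = 0.282), and the lowest of these tumours lay within the K27M-APP range of 46.3 and 42.6. Eno2 had a log2 fold change of 0.99 ± 0.38 (SE) and the pyruvate dehydrogenase kinase Pdk1 of 0.76 ± 0.34 (SE), with edgeR adjusted p-values of 0.392 and 0.485. Slc2a3 and Slc16a1 had log2 fold changes of 0.56 ± 0.25 (SE) and 0.24 ± 0.21 (SE), Epas1 of 0.85 ± 0.42 (SE) and Hif1a of -0.14 ± 0.13 (SE). Hk1, Gpi1, Aldoa and Tpi1 had values from -0.30 for Aldoa to 0.046 for Hk1, with none called.

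**Figure D4:**
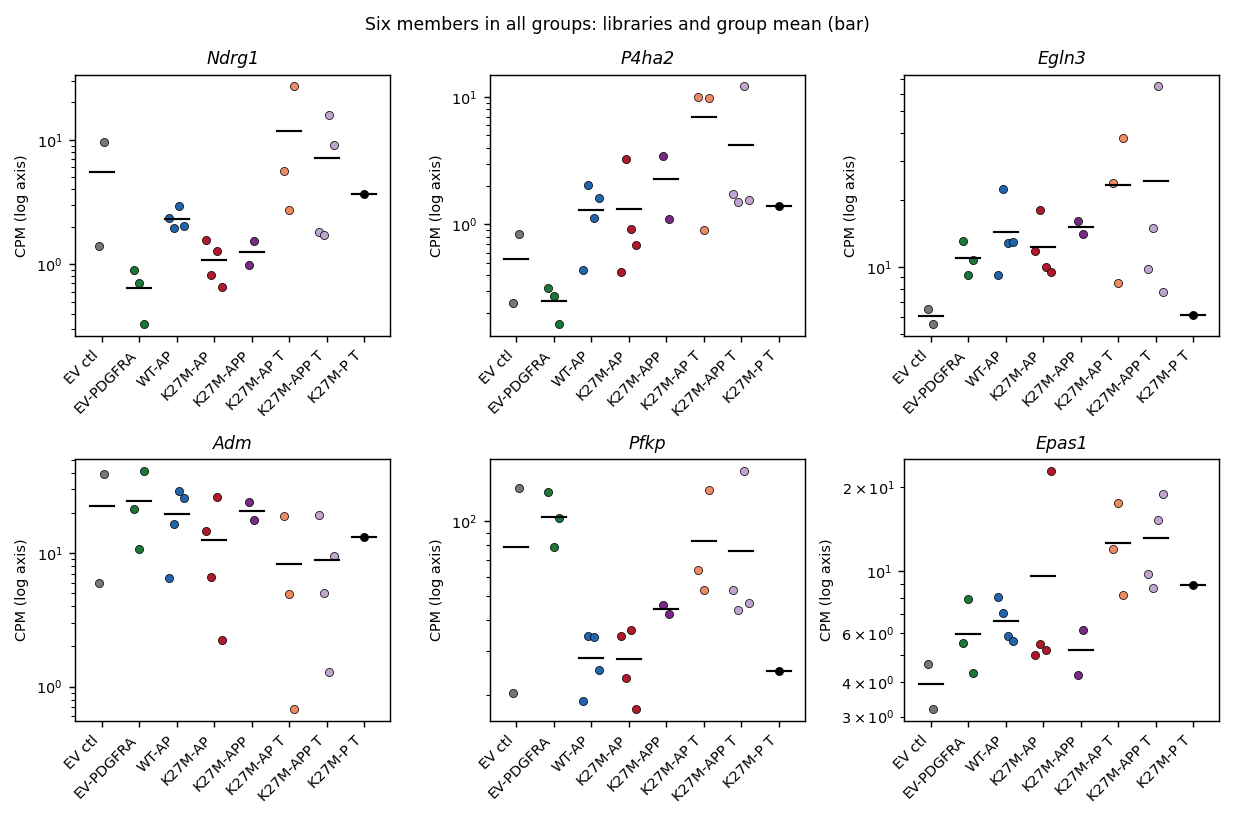
CPM of Ndrg1, P4ha2, Egln3, Adm, Pfkp and Epas1 in all 8 groups, on log axes. Points are libraries and bars are group means. The tumour groups K27M-AP T and K27M-APP T each span a wide range, and all 7 of their Ndrg1 values lie above the K27M-AP and K27M-APP values.

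K27M-APP T 3 and the library labelled K27M-AP T 4 stood apart from the other tumours at several members. Egln3 was 64.6 and 38 CPM in these 2, against 7.75 to 23.9 in the other 5 tumours of these groups. Pfkp was 159 and 134 CPM against 44.2 to 63.8, and Ldhb was lower at 39.9 and 43.6 against 104 to 131. The hypoxia-induced genes did not go one way in them: Ndrg1 was high (15.9 and 26.9 CPM), while Adm was at its 2 lowest values of all 23 libraries (1.29 and 0.682). P4ha2 was 12.1 and 9.79 CPM there, and also 10.1 in K27M-AP T 1. Leaving out either library kept the count of called members in each tumour comparison at 0.

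Within single backgrounds the tumour step gave no called member either. For K27M-AP T against K27M-AP, edgeR called 0 members and 0.0245% of all genes. There 4 of the 33 had an unadjusted p below 0.05, against 12.2% of all genes, and DESeq2 called 1, Ndrg1. By edgeR, Ndrg1 had a log2 fold change of 3.41 ± 0.89 (SE) (adjusted p = 0.17), P4ha1 of 0.41 ± 0.16 (SE), Pfkp of 1.55 ± 0.47 (SE), the kinase Pgk1 of -0.49 ± 0.31 (SE), Slc16a1 of 0.53 ± 0.27 (SE), Slc2a3 of 0.40 ± 0.32 (SE), Hif1a of -0.23 ± 0.17 (SE) and Epas1 of 0.38 ± 0.54 (SE). For K27M-APP T against K27M-APP, edgeR called 0 members and 0% of all genes. There 2 of the 33 had an unadjusted p below 0.05, against 3.33% of all genes, and DESeq2 called 0. Eno2 had a log2 fold change of 1.46 ± 0.60 (SE), Gpi1 of -0.48 ± 0.23 (SE), Slc2a3 of 0.72 ± 0.37 (SE), Slc2a1 of 0.15 ± 0.25 (SE), Ndrg1 of 2.48 ± 1.09 (SE), Pdk1 of 0.67 ± 0.52 (SE), Epas1 of 1.32 ± 0.65 (SE) and Hif1a of -0.046 ± 0.19 (SE). The difference between these tumour steps was tested as an interaction, which called 0 members by edgeR and 0% of all genes. Here 0 of the 33 had an unadjusted p below 0.05, against 3.55% of all genes, and DESeq2 called 0. Eno1 and Ldha had the smallest p there, with interactions of -0.89 ± 0.45 (SE) and -0.90 ± 0.56 (SE) on the log2 scale.

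Between tumours, Pdgfra delivery was compared as K27M-APP T against K27M-AP T. It called 0 members by edgeR and 0% of all genes. At the single-gene level 1 of the 33 had an unadjusted p below 0.05, against 2.67% of all genes, and DESeq2 called 0. Slc2a1 was 15.6, 15.8 and 22.9 CPM in K27M-AP T and 29.6, 28.4, 27.9 and 18.9 in K27M-APP T, overlapping through K27M-APP T 4 and the library labelled K27M-AP T 4, with a log2 fold change of 0.55 ± 0.22 (SE) (edgeR adjusted p = 1). Slc16a3 had a log2 fold change of 0.46 ± 0.38 (SE), Gapdh of 0.63 ± 0.38 (SE), Pgk1 of 0.47 ± 0.31 (SE), Pdk1 of -0.56 ± 0.44 (SE), Bnip3 of -0.55 ± 0.48 (SE), Epas1 of 0.070 ± 0.54 (SE) and Hif1a of -0.0035 ± 0.17 (SE).

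Ratios of 2 isoforms within a library do not depend on scaling between libraries, and 5 were compared in 2 ways. Each was tested by a two-sided exact permutation of labels within the strata with and without Pdgfra, adjusted over the 10 tests, and 2 of the 10 passed an adjusted p of 0.05. The log2 ratio of Eno1 to Eno2 counts was 5.16 and 3.54 in EV ctl and 6.42, 5.78 and 5.01 in EV-PDGFRA. It was 5.38, 5.95, 5.97 and 6.43 in WT-AP, 7.03, 5.72, 6.38 and 3.87 in K27M-AP and 7.33 and 7.39 in K27M-APP. The targeted libraries were higher by 1.55 on the log2 scale (exact permutation p = 0.00889, adjusted 0.0444; the smallest p possible was 0.00222), although the ranges overlapped and K27M-AP 4 lay low among the targeted. In the fit across genes Eno2 fell and Eno1 was not called. The log2 ratio of Epas1 to Hif1a was -5.75, -5.45, -5.65 and -3.88 in K27M-AP and -5.74 and -5.35 in K27M-APP, against -4.15, -3.85 and -4.9 in K27M-AP T and -4.48, -4.52, -4.0 and -3.89 in K27M-APP T. Tumours were higher by 1.11 on the log2 scale (exact permutation p = 0.00762, adjusted 0.0444; smallest possible 0.0019), and K27M-AP 4 was the one preneoplastic library within the tumour range. The 8 summed markers of endothelial cells and pericytes, where Epas1 is known to be high, ran from 5.55 to 9.06 CPM in K27M-AP and K27M-APP and from 12.2 to 53.8 in the tumours, without overlap, 4 of the 8 staying below 1 CPM in every tumour library, and their part in this ratio was not tested. For both ratios the adjusted p was 0.0556 when 5 rather than 0.5 was added to each count.

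**Figure D5:**
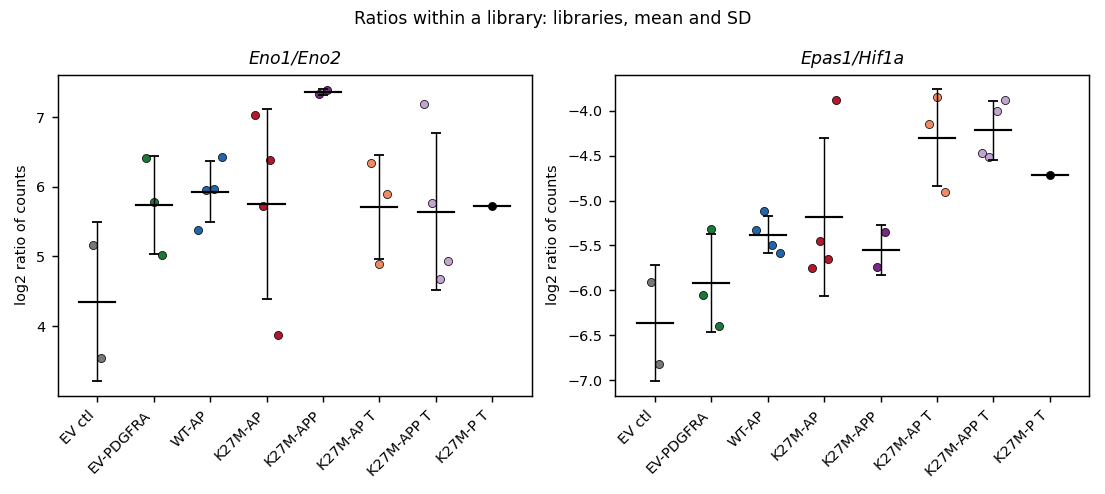
Log2 ratio of Eno1 to Eno2 counts and of Epas1 to Hif1a counts in each library of the 8 groups, with 0.5 added to each count. Points are libraries, bars are group means and error bars are SD. In the left panel 9 of the 10 targeted preneoplastic libraries lie above both EV ctl libraries, while the EV-PDGFRA libraries lie within the targeted range. In the right panel the 7 K27M-AP T and K27M-APP T libraries lie above 5 of the 6 K27M-AP and K27M-APP libraries.

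The other ratios did not pass. The log2 ratio of Hk2 to Hk1 was -2.35 in the median untargeted and -1.36 in the median targeted library, a balanced difference of 1.2 (exact permutation p = 0.0689, adjusted 0.172). Its adjusted p was 0.668 with labels permuted over all libraries, where the plain difference of means was 0.68. Per length, Hk1 exceeded Hk2 in EV-PDGFRA, 18.7 ± 0.906 against 6.37 ± 2.57 RPKM (SD, n = 3), and in K27M-AP, 10.2 ± 2.42 against 3.94 ± 3.04 RPKM (SD, n = 4). The mean log2 ratio of counts in K27M-AP, -2.28, was near the -2.17 of EV-PDGFRA. The 2 hexokinases were level in K27M-APP, 7.17 ± 1.02 against 7.22 ± 0.713 RPKM (SD, n = 2). Epas1 to Hif1a in targeted against untargeted cells gave 0.73 (exact permutation p = 0.0489, adjusted 0.163). Ldha to Ldhb gave 0.14 in targeted cells and 0.24 in tumours, Slc16a3 to Slc16a1 gave -0.033 and -0.26, and in tumours Hk2 to Hk1 gave 0.049 and Eno1 to Eno2 -0.88.

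Neighbouring genes of the same pathways were counted in the comparison of targeted with untargeted cells. Of 26 further glycolysis genes tested, 2 rose and 3 fell, while 3.24% of all genes were called higher and 4.51% lower. The phosphoglucomutases Pgm2 and Pgm1, which link glycogen to glycolysis, fell by log2 fold changes of -0.65 ± 0.084 (SE) and -0.80 ± 0.17 (SE) (edgeR adjusted p = 0.000808 and 0.0146). Pgm2 held 94.8 to 130.4 CPM in untargeted and 59.1 to 81.7 in targeted libraries, without overlap. The hexokinase-related Hkdc1 fell at low levels, 0.0745 to 1.26 against 0 to 0.154 CPM, and the pyruvate and lactate carrier Slc16a7 rose, with 0.764 to 1.59 CPM in untargeted and 1.88 to 4.17 in targeted libraries.

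Of 28 genes of pyruvate entry and the citric acid cycle, 25 had negative values with a median log2 fold change of -0.34, 2 fell and 0 rose. Over all genes tested 50.3% had positive values, the median was 0.0029 and 7.75% were called, so the called share of these 28 was near the background. Mpc1, a subunit of the carrier that brings pyruvate into mitochondria, held 56 to 83.3 CPM in untargeted and 28.2 to 46.7 in targeted libraries, without overlap (log2 fold change -0.98 ± 0.13 (SE), edgeR adjusted p = 0.00101). Ogdh, of the oxoglutarate dehydrogenase complex, had a log2 fold change of -0.50 ± 0.14 (SE) (adjusted p = 0.0433).

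Of 33 further hypoxia-induced genes, 2 rose and 3 fell, with a median log2 fold change of 0.080, while 7.75% of all genes were called. Hmox1, a haem-degrading enzyme, fell (43.3 to 196 against 17.4 to 46.7 CPM in targeted libraries). The adenosine-making Nt5e rose (0.857 to 1.53 against 1.04 to 6.27), as did the carbonic anhydrase Car12 (0.324 to 2.3 against 0.303 to 4.7). Vegfa, the vessel growth factor, held 12.6 and 91.6 CPM in EV ctl and 30.5, 26.3 and 48.3 with Pdgfra alone, beside 19.1 to 38.7 in targeted libraries, EV ctl 5 being the highest of all. Of 12 HIF partners and regulators, 2 rose and 1 fell, again beside 7.75% of all genes called. Arnt, the partner of both alpha subunits, rose by a log2 fold change of 0.58 ± 0.14 (SE) (edgeR adjusted p = 0.029). Hif3a rose at levels below 1 CPM (0 to 0.149 against 0.0746 to 0.475), and Arnt2, the neural relative of Arnt, fell by 0.68 ± 0.13 (SE) on the log2 scale (edgeR adjusted p = 0.00854). In the tumour comparison 0 genes of these 4 lists were called by edgeR.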

How the data were processed

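RNA sequencing was analysed from 23 libraries in 8 groups, grouped by their labels. The values are counts per gene that the authors deposited in 2 tables, raw and not normalised. Per the submitters' processing notes the tools were Trimmomatic 0.32, STAR 2.3.0e, featureCounts 1.4.4, GATK, Picard and SAMtools 0.1.19, with build mm10. Per the labels' protocols, ribosomal RNA was removed from total RNA and both ends were read. Of the libraries, 22 were read from the later table and 1 from the earlier, 12 libraries stood in both with identical counts, and 8 columns matched no sample and were not used. Depth ran from 37300947 to 68642582 counts, so precision for members of a few counts, such as Car9, is limited by counting.

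Counts were scaled by TMM and tested with edgeR 4.0.16 (quasi-likelihood, R 4.3.3), after its filter for a count of 10 and a total of 15. Preneoplastic comparisons used 1 fit of 15 libraries and tumour comparisons 1 of 13. Adjusted p-values are Benjamini-Hochberg over all genes of a fit, and a gene was called below 0.05. SE were obtained from the log2 fold change and its F statistic. CPM use TMM over all 23 libraries, RPKM the union of exons in GENCODE M21 (GRCm38), which matched 37607 of 39017 identifiers. Isozyme ratios were compared by exact permutation (SciPy 1.17.1, Python 3.11.15) with 0.5 added to each count. Scripts were tested on simulated data.

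The members and gene lists were chosen with earlier results of these data known. In a comparison the called members are named, otherwise the 2 of each class with the smallest unadjusted p, and of other lists up to 4 called genes, except that 1 is not reported here. Alternatives were DESeq2 size factors, no filter, the DESeq2 1.42.0 test, a replicate block, a term for the table, each library left out, and for ratios 5 added to counts or permutation over all libraries. Fits within each table and without the 2 libraries low in Mki67 were chosen after seeing the data. Shares of all genes called are given for the main edgeR fits only.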

Additional observations from a re-analysis of the deposited data

Results flagged for a closer look

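In groups of 4 libraries each member was checked for a single library whose gap to its nearest neighbour took up nearly the whole range of the group (Dixon's criterion). Of 99 checks, 12 met it. The nominal rate of about 1 in 20 holds for independent normal values, and these checks share libraries. The share over all genes was not computed, so the count is not a result about these members. K27M-APP T 3 accounted for 6. It was high at the phosphofructokinases Pfkl (101 CPM, next 45.4) and Pfkp (159, next 53.1), and at their activator's enzyme Pfkfb3 (62.8, next 20.8). It was also high at the hydroxylases Egln3 (64.6, next 15) and P4ha2 (12.1, next 1.73), and low at Ldhb (39.9, next 123). In the same group K27M-APP T 4 was low at the glucose transporter Slc2a1 (18.9 CPM, next 27.9).

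K27M-AP 4 was high at Epas1 (22.8 CPM, next 5.47). Among the WT-AP libraries, the library labelled WT-AP 1 was low at Eno1 (205 CPM, next 286) and Ldha (234, next 399), WT-AP 5 was low at Eno2 (3.3, next 4.7), and WT-AP 3 was high at Tpi1 (270.2, next 235). Both interactions called 0 members in edgeR.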

How the results depend on the processing

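For targeted against untargeted cells, 8 members were called, and the count ran from 1 to 11 when 1 library was left out. It was 4 with the replicate number as a block (Aldoa, Gpi1, Hk1, Tpi1), 4 with a term for the table (Eno2, Gpi1, Hk1, Tpi1) and 0 within the later table. The signs of the 8 log2 fold changes were the same in every alternative. The alternatives reuse the libraries by which these genes were called, so equal signs are no separate evidence. For K27M-APP against EV-PDGFRA the main count of 1 was 5 by DESeq2, 3 with the replicate block, 5 within the earlier table, 8 without the 2 libraries low in Mki67, and 0 to 4 with 1 library left out. DESeq2 called 2 members for WT-AP against EV ctl, 1 for EV-PDGFRA against EV ctl, 1 for K27M-AP T against K27M-AP and 1 for tumours against preneoplastic cells. Leaving out 1 library gave 0 to 2 for WT-AP against EV ctl and 0 to 1 for EV-PDGFRA against EV ctl, each highest without EV ctl 4. The replicate block changed no other count by over 1.5 times. Libraries of the same number had deviations correlated from -0.21 to 0.62. The correlations were above 0.1 throughout for EV-PDGFRA with K27M-AP, EV-PDGFRA with WT-AP and K27M-AP with K27M-APP T, which are not compared alone. In no comparison of 2 groups with more than 1 such pair of libraries did this hold throughout, and the numbers were not taken to pair samples. EV-PDGFRA, K27M-AP and WT-AP all enter the comparison of targeted with untargeted cells, so pairing remains uncertain there. For K27M-AP with WT-AP the correlations were -0.21, 0.50 and 0.62 in replicates 1, 2 and 3. Pairing therefore remains uncertain in the comparison of K27M-AP with WT-AP too. Of 1008 class medians under alternatives, 978 moved by less than the median SE of the single genes in the class and 30 by more. That yardstick belongs to single genes and not to a class median. The cause of these changes was not tested. The share of all genes called under each alternative is not given here, so the counts are not set against it.

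The Eno1 to Eno2 ratio in targeted cells was 1.53 with 5 added (adjusted p = 0.0556, exact permutation), 0.96 when permuted over all libraries (adjusted p = 0.397), and 1.15 to 1.96 with 1 library left out. The Epas1 to Hif1a ratio in tumours was 1.1 and 1.05 under those settings (adjusted p = 0.0556 and 0.0749, exact permutation) and 0.99 to 1.32 with 1 left out. Each missed an adjusted p of 0.05 in 11 of these leave-one-out settings. In targeted cells, permuting over all libraries reversed Ldha to Ldhb to -0.35 and Slc16a3 to Slc16a1 to 0.083. With 1 library left out these 2 ran from -0.53 to 0.82 and from -0.13 to 0.10, and Epas1 to Hif1a in targeted cells from 0.50 to 0.96. In tumours Hk2 to Hk1 ran from -0.28 to 0.27 and Ldha to Ldhb from -0.030 to 0.44.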

Other observations

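The single K27M-P T tumour, without the Atrx hairpin, entered no comparison. Its Atrx was 291 CPM and its Trp53 7.14 CPM. Of the 8 tumours it held the least Pfkp (25 CPM) and Egln3 (6.09 CPM). Its Ndrg1 was 3.71 CPM, its Adm 13.3 CPM and its P4ha2 1.38 CPM, each within the range of the other tumours. Its log2 ratio of Eno1 to Eno2 counts was 5.73 and that of Epas1 to Hif1a -4.71.

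K27M-APP T 3 was the highest of all 23 libraries for 9 of the 33 members, more than any other library, and EV ctl 5 and EV-PDGFRA 3 followed with 5 each. K27M-APP T 3 was also the lowest library for 5 of the 33, among them 4 of the 17 glycolytic enzymes. These counts were not set against the share over all genes.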
